A study of Mus musculus with 4 samples.

Results

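Gata3 and Maf encode transcription factors of T-helper 2 (Th2) cells, and each has a noncoding gene annotated on its other strand, Gm13256 and Gm15655. These 4 genes were found by symbol among the 50600 genes of the count files, and 4 of 4 matched. The libraries were 4 biological replicates of 1 group: Th2 primary cells of strain C57BL/6NJ, with no further genotype or treatment given, with age unknown and sex not collected. The labels link a protocol for differentiating CD4 T cells, and give each library its own biosample and all 4 the same donor identifier. The file headers name 72 h and a sort, without saying whether the sort came before or after that time. With 1 group, genes were compared with each other inside each library and replicates with each other. The p-values of ratios between genes come from an exact sign-flip permutation test over these 4 samples. Where all 4 values share a sign, these p-values are the same whatever the spread between the samples. Those of the chi-square test measure how far the counts of a gene depart from counting error.

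GATA3 is a zinc-finger protein that binds GATA motifs, opens the Th2 cytokine genes and restrains the Th1 fate. Interleukin 4 raises it through STAT6. The MAF protein (c-MAF) is a large leucine-zipper factor that activates Il4 in Th2 cells and acts on Il10 and Il21 in several T cell types. Many regulator genes have an antisense noncoding gene near their start, and a strand-aware count assigns a sequenced fragment to one gene or the other by the orientation of its reads. The headers set the counting to strand option 1, and none of the sources used here gives the orientation of reads from the library kit. RNA of a noncoding gene and RNA of the coding gene read in the opposite orientation therefore cannot be told apart in these counts, and a value below is a count on the annotated strand of a gene. The 8189 of 50600 genes with an exon opposite another gene's exon held 79.9% to 91.5% of the counts of a library. Whether strand option 1 matches the read orientation of these libraries was not tested.

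Gm13256 lay across the start of the main Gata3 transcript, within the bounds of the annotated gene. Gata3 (ENSMUSG00000015619.10, protein coding, minus strand, chr2:9857078-9890034, mm10) has 3978 bp of exon in 10 exons, and Gm13256 (ENSMUSG00000086618.1, antisense, plus strand, chr2:9877256-9878869) has 520 bp in 2 exons. Of its first exon, 93 of 189 bp lay opposite coding sequence of Gata3 and the other 96 bp opposite an intron. Of its second exon, 62 of 331 bp lay opposite the 5′ UTR of Gata3, and 269 bp lay beyond the start of the main Gata3 transcript. Those 269 bp were still inside the bounds of the whole annotated gene. The 155 shared bp were 29.8% of Gm13256 and 3.90% of the exon sequence of Gata3. The first exon is shown 5′ to 3′ on the plus strand (GRCm38, from the GENCODE M21 transcript) because it joins the noncoding gene to the coding sequence of the regulator, and the capitals mark the 93 bases opposite that coding sequence.
Gm13256 exon 1, chr2:9877256-9877444: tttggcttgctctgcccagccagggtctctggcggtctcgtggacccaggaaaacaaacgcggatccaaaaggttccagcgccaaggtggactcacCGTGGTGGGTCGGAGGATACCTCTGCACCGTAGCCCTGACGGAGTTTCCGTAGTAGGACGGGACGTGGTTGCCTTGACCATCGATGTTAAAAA

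The second exon of Gm13256 covered the Gata3 promoter before the RefSeq start. Of the 4 genes, 1 matched an entry in the RefSeq promoter table (build GRCm38.p6), which was Gata3. All 250 bp before its RefSeq start lay within that exon. The stretch is shown 5′ to 3′ on the minus strand, the strand of Gata3, because it is both regulator promoter and exon of the noncoding gene, and the capitals mark GGGCGG, the letters of a GC box, searched on both strands.
Gata3 upstream, chr2:9878601-9878850: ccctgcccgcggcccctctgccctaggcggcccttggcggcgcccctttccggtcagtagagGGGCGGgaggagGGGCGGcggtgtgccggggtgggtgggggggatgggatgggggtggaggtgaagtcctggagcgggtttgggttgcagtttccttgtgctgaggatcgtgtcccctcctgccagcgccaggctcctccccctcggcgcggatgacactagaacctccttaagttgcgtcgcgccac

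The Gata3 stretch held 2 GGGCGG matches, and 32.7% of the 32851 RefSeq promoter windows of this length held at least 1. It was 70.0% G or C, above 90.8% of those windows, and had 19 CG dinucleotides against a median of 6. The letters GATA, which GATA3 itself binds, had no match in it on either strand, and 53.6% of the windows held them. TATAAA, the core of the TATA box, was also without a match, against 12.4% of the windows. The E box letters CANNTG had none either, against 66.2%. These are matches of letters and say nothing about binding.

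Gm15655 lay within the largest exon block of Maf, on both sides of the coding sequence there. Maf (ENSMUSG00000055435.6, protein coding, minus strand, chr8:115682942-115707794) has 8241 bp of exon in 3 exons, and Gm15655 (ENSMUSG00000086717.1, antisense, plus strand, chr8:115705078-115707233) has 440 bp in 2 exons. All 440 bp lay opposite Maf exons, 401 bp opposite the 3′ UTR of a long Maf transcript and 39 bp opposite its 5′ UTR, so none of it is printed. The 1716 bp intron of Gm15655 lay opposite 1110 of the 1141 bp of annotated Maf coding sequence.

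Both noncoding genes had 2 exons on the plus strand, and both coding genes were on the minus strand. The introns of both noncoding genes began with gt and ended with ag on the plus strand, the usual ends of an intron, as read from the transcripts of Gata3 and Maf. The intron of Gm13256, of 1094 bp, lay opposite 145 bp of Gata3 coding sequence. The map of both loci shows these positions.

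**Figure D1:**
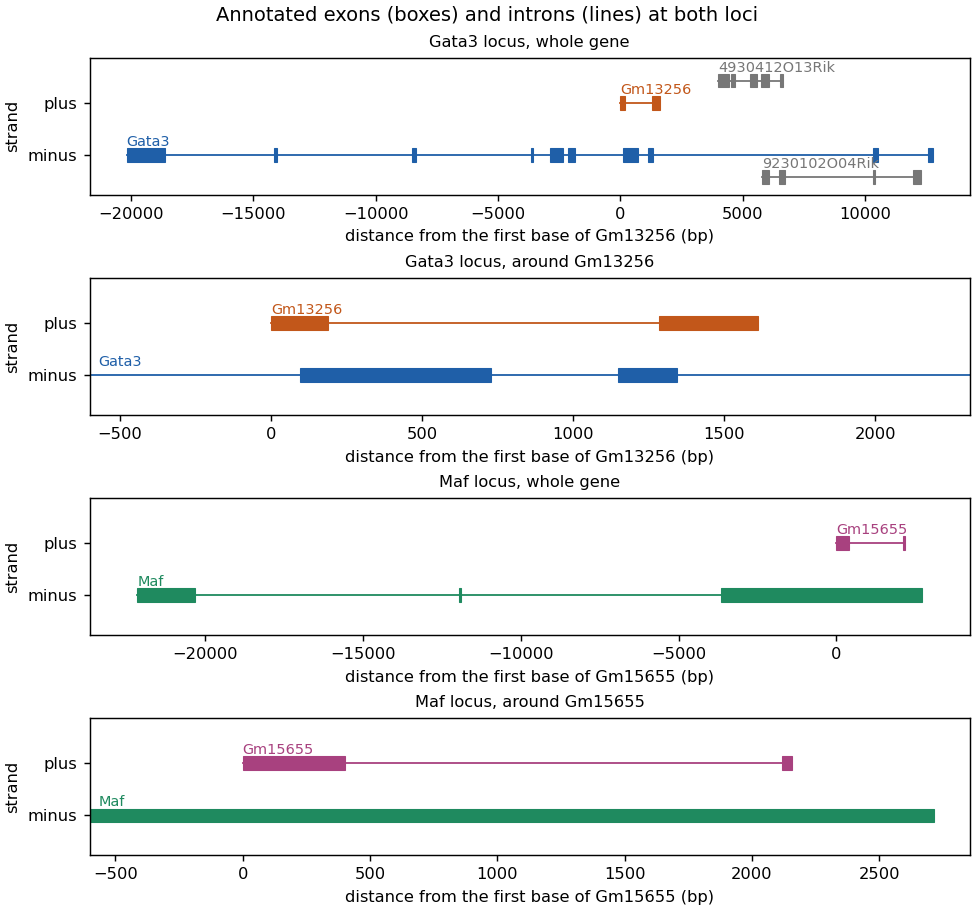
Exons (boxes) and introns (lines) at the Gata3 and Maf loci by strand, with the distance in bp from the first base of the noncoding gene on the x axis. Gm13256 crosses the start of the main Gata3 transcript, while both exons of Gm15655 lie within 1 Maf exon block.

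Per base of exon, each noncoding gene held far more counts than the regulator opposite it in every library with a count for both. Gata3 had 63, 25, 32 and 73 counts in replicates 1 to 4, or 35.4, 13.5, 22.1 and 57.3 CPM, the count scaled to a common library total. Gm13256 had 643, 1094, 678 and 389 counts, or 361, 589, 469 and 305 CPM. The highest Gata3 library was thus the lowest for Gm13256, and the lowest Gata3 library the highest for it. Maf had 7, 4, 5 and 0 counts, or 3.93, 2.15, 3.46 and 0 CPM, and the 0 in replicate 4 allows up to 2.35 CPM (3 counts of the total, a one-sided 95% limit). Gm15655 had 95, 162, 81 and 38 counts, or 53.4, 87.2, 56.0 and 29.8 CPM. It was highest in replicate 2 and lowest in replicate 4, as Gm13256 was. The total count per library ranged from 1274431 to 1857433, and intervals and limits here cover counting error only.

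**Figure D2:**
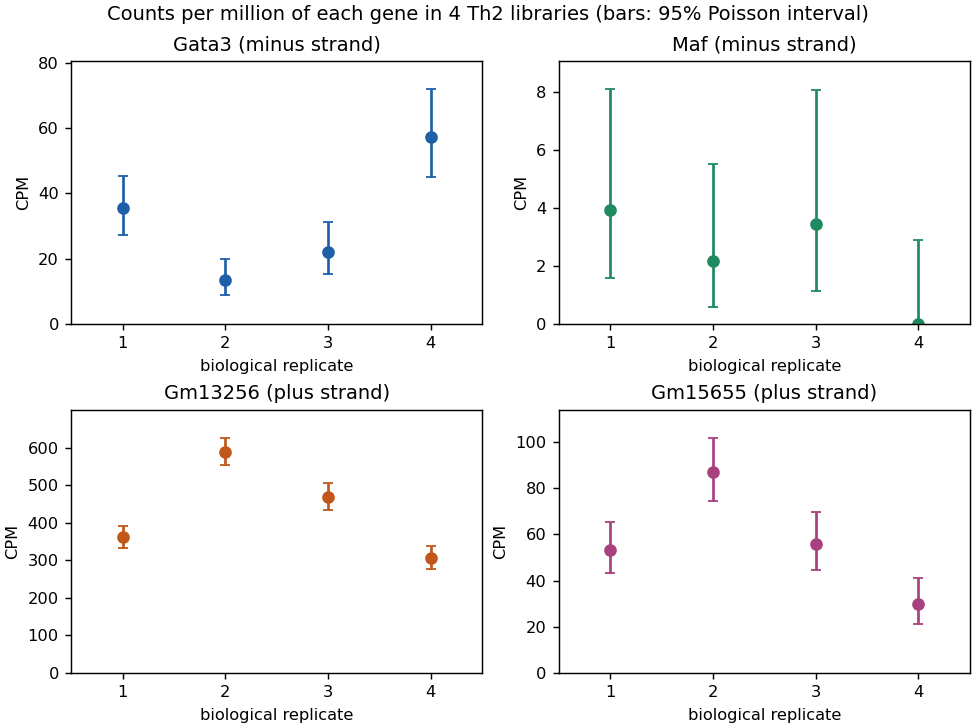
CPM (y axis, from 0) of Gata3, Gm13256, Maf and Gm15655 in the 4 biological replicates (x axis), with 95% exact Poisson intervals of the count as bars. Gata3 runs from 13.5 to 57.3 CPM and is highest in replicate 4, where Gm13256 and Gm15655 are lowest with 305 and 29.8 CPM.

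As levels per length, the 4 genes were ordered Gm13256, Gm15655, Gata3 and Maf. TPM divides each gene's counts by its exon length and scales each library to the same sum. Gm13256 had 1217 ± 295 TPM (SD, n = 4), Gm15655 188 ± 70.6, Gata3 12.2 ± 7.82 and Maf 0.424 ± 0.319. The TPM ranges of these neighbours did not overlap in any case: Gm13256 had at least 923, Gm15655 between 107 and 279, Gata3 between 4.76 and 22.6, and Maf at most 0.726. Gm13256 exceeded Gm15655 by 2.73 ± 0.28 on the log2 scale of counts per kb (pseudocount 0.5 counts), in 4 of 4 libraries (exact two-sided sign-flip permutation p = 0.13). Gata3 exceeded Maf by 4.13, 3.55 and 3.61 in replicates 1 to 3. In replicate 4, where Maf had no count, Gata3 was at least 50.4-fold higher per kb, with Maf at that limit of 3 counts. The mean over 4 libraries was 4.89 ± 2.26 (exact sign-flip permutation p = 0.13), and it was 3.77 ± 0.32 without replicate 4. With 4 libraries this is the smallest p the test can give, 1 in 8, so it cannot reach 0.05, and the adjusted p over 5 such tests is the same.

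Among the 7752 genes that averaged 10 or more counts, Gata3 stood near the middle by TPM and the noncoding genes high. The mean TPM of Gata3 was above that of 54.5% of these genes, and above 65.4% of the 6071 protein-coding ones. Maf did not reach that count. Gm13256 was above 98.4% of the 7752 genes and above 94.2% of the 1422 long noncoding genes among them, while Gm15655 was above 90.3% and 69.8%. By count, Gm13256 ranked from 156 to 243 among the long noncoding genes of a library and Gm15655 from 661 to 916.

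At the Gata3 locus Gm13256 had 78.1, 335, 162 and 40.8 times the counts per kb of Gata3 in replicates 1 to 4. The log2 ratio was 6.82 ± 1.30 and positive in 4 of 4 libraries (exact sign-flip permutation p = 0.13). Of the fragments counted for either gene, 91.1% (95% Wilson interval 88.7 to 93.0), 97.8% (96.7 to 98.5), 95.5% (93.7 to 96.8) and 84.2% (80.6 to 87.2) fell on Gm13256. The intervals of replicates 1 and 4 lay below those of replicates 2 and 3 and did not overlap each other, so the split between the strands differed between libraries beyond counting error. Of the 7752 genes tested singly, 88.2% also varied beyond counting error, so this is not a result about the pair.

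At the Maf locus Gm15655 had 254, 759 and 303 times the counts per kb of Maf in replicates 1 to 3, and at least 237 times in replicate 4 with Maf at the limit of 3 counts. The log2 ratio was 8.98 ± 1.21 with 0.5 counts added, positive in 4 of 4 libraries (exact sign-flip permutation p = 0.13). With Maf set to 3 counts in replicate 4 it was 8.42 ± 0.78. On Gm15655 fell 93.1% (86.5 to 96.6), 97.6% (94.0 to 99.1), 94.2% (87.1 to 97.5) and 100% (90.8 to 100) of the fragments of the pair. These intervals overlapped, and the pair held only 38 to 166 counts in a library.

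The ratio at the Gata3 locus minus that at the Maf locus was -1.62, -1.04, -0.80 and -5.15 in replicates 1 to 4, a mean difference of -2.15 ± 2.03 (exact sign-flip permutation p = 0.13). Without replicate 4 it was -1.15 ± 0.42. On the log2(TPM + 1) scale the difference was -0.31 ± 0.89 (exact sign-flip permutation p = 0.625), and with counts not divided by length -0.86 ± 2.03 (exact sign-flip permutation p = 0.75), with 2 libraries below 0 and 2 above. The loci were therefore not shown to differ in this ratio.

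A denser noncoding gene was the common case across the annotation. Of 1354 pairs of a protein-coding gene and a long noncoding gene that share at least 100 bp of exon on opposite strands and hold at least 20 counts together, the noncoding gene had more counts per kb in 1172, or 86.6%. In 1062 pairs (78.4%) it was denser in every library. The Gm13256 and Gata3 pair and the Gm15655 and Maf pair were among the 1172, a share of 2 in 2 that is near this background and is not a result about these pairs. The median log2 ratio was 5.21, with quartiles at 2.68 and 7.17, and 5.11 with genes at 0 set to 3 counts. On the same summed counts Gm13256 over Gata3 had 6.79, above 70.0% of pairs, and Gm15655 over Maf 8.74, above 88.8%. Of the 81 pairs whose noncoding gene lay wholly opposite exons of its partner, as Gm15655 does, 95.1% had the denser noncoding gene, with a median log2 ratio of 7.88. The other 1273 pairs, such as Gm13256 and Gata3, had 86.0% and a median of 5.09.

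**Figure D3:**
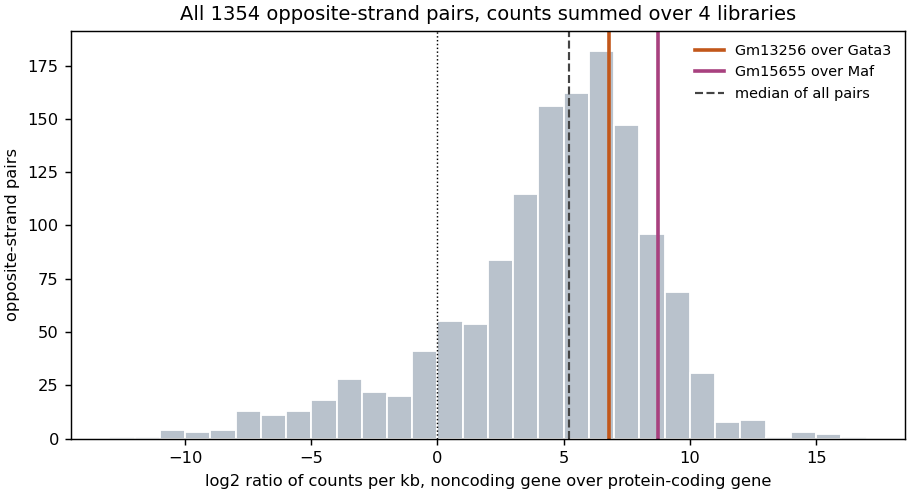
Number of opposite-strand pairs (y axis) by the log2 ratio of counts per kb of the noncoding over the protein-coding gene (x axis), from counts summed over 4 libraries with 0.5 counts added, with coloured lines for both regulator pairs and a dashed line for the median. Gm13256 over Gata3 (6.79) and Gm15655 over Maf (8.74) both lie above the median of 5.21 and inside the main body of pairs.

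Between replicates, Gata3 and the noncoding genes moved in opposite orders. By CPM the order from high to low was replicate 2, 3, 1, 4 for Gm13256 and for Gm15655, and replicate 4, 1, 3, 2 for Gata3, its exact reverse, and scaling by TMM (trimmed mean of M values) kept all 3 orders. The highest Gata3 library had 4.26 times the CPM of the lowest, and its 95% Poisson interval (44.9 to 72.0 CPM) lay above that of replicate 2 (8.71 to 19.9). For Gm13256 the ratio was 1.93 and for Gm15655 2.93. On TMM-scaled CPM these ratios were 3.07 for Gata3, 2.67 for Gm13256 and 4.05 for Gm15655, so which gene ranged most depended on the scaling. Neighbours in these orders were not always apart: the intervals of replicates 1 and 4 of Gm13256 overlapped, as did those of replicates 1 and 3 of Gm15655, and those of every pair of neighbours in the order of Gata3. The 4 intervals of Maf all overlapped, so no order was read for it.

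**Figure D4:**
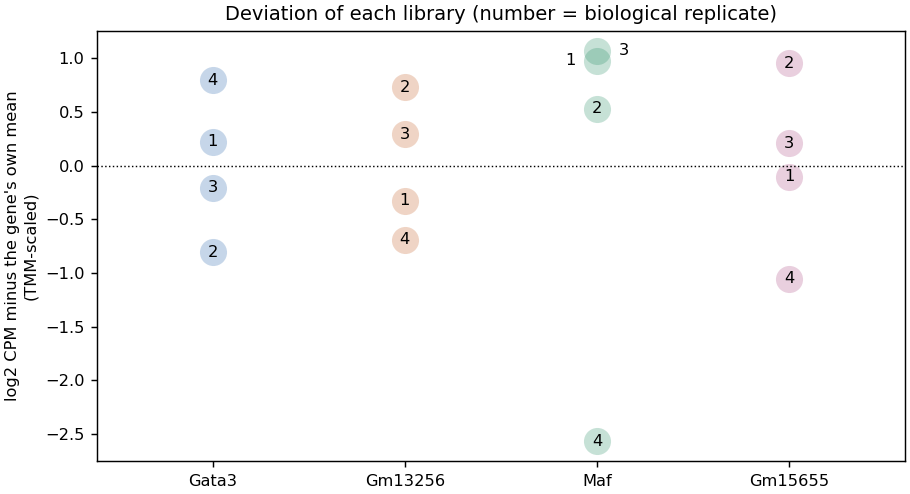
Deviation of log2 CPM (TMM-scaled, 0.5 counts added) from the gene's own mean over 4 libraries (y axis) for each gene (x axis), with the biological replicate written in each point. Replicate 2 is highest and replicate 4 lowest for Gm13256 and Gm15655, the reverse of Gata3, and the low point of Maf rests on 0 counts.

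The share of all counts in genes with an exon opposite another gene's exon had the same order as the noncoding genes, at 83.6%, 91.5%, 90.9% and 79.9% in replicates 1 to 4, and its part in these differences was not tested. Such genes were 8189 of all 50600. Among the 7752 genes, 4.61% had the order of Gm13256 and Gm15655. This was 7.97% of the 3925 with an opposite exon and 1.15% of the other 3827. The order of Gata3 was found in 14.7% of genes, 7.82% of those with an opposite exon and 21.7% of those without.

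Gata3, Gm13256 and Gm15655 varied between libraries beyond counting error (chi-square test against Poisson sampling with Benjamini-Hochberg adjustment, adjusted p = 3.6e-06, 2.0e-85 and 5.4e-17), but 88.2% of the 7752 genes tested did so as well. That share is the background, and 3 of 3 tested members past the test is not particular to them. Maf, with a mean of 4 counts, was not tested there. The biological coefficient of variation, the spread beyond counting error as edgeR estimates it, was 0.346 for Gm13256, 0.460 for Gm15655 and 0.518 for Gata3, against a median of 0.595 over all tested genes. Gm13256 was thus the steadiest of the 3 by this estimate, with 11.2% of genes below it. TMM-scaled CPM was 449 ± 194 for Gm13256, 59.5 ± 32.3 for Gm15655 and 30.3 ± 14.0 for Gata3 (SD, n = 4). Relative to the mean, that spread was larger for Gm15655 than for Gata3, so the order of these genes depended on the measure.

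The genes closest in pattern were taken as those with the smallest mean absolute difference in log2 deviation over the 4 libraries. For Gata3 these were Bcl11b (0.02), Ccnd3 (0.05) and Myo10 (0.06). For Gm13256 they were Gm45444 (0.02), Gm17077 (0.02) and the rRNA entry CT010467.1 (0.03), and for Gm15655 Gm6598 (0.04), Gm20402 (0.06) and Gm9887 (0.06). All 6 genes nearest the noncoding genes had an exon opposite another gene, as did Ccnd3 but not Bcl11b or Myo10. So did 3925 of the 7752 genes averaging 10 or more counts. The order of Gm13256 and Gm15655 was itself commoner among genes with an opposite exon, at 7.97% against 1.15%, so these 6 are no separate result. Toe1 (0.14) and Gm26838 (0.14) were among the nearest to Maf, a likeness that rests on the missing Maf counts of replicate 4. Gm15655 lay at 0.22 from Gm13256, and 9.52% of genes lay nearer to Gm13256 than that. Gata3 lay at 1.02 from Gm13256, with 61.4% of genes nearer. With 4 libraries many genes come close by this measure.

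Within the bounds of Gata3 there were 2 more annotated genes, which carried counts of the same size as Gata3 itself. 4930412O13Rik (plus strand, chr2:9881252-9883921), annotated as protein coding, had 41, 59, 50 and 25 counts. 9230102O04Rik (minus strand, chr2:9883041-9889540), also annotated as protein coding, had 23, 62, 45 and 53. Neither has an exon opposite a Gata3 exon, but 77 bp of 9230102O04Rik are also Gata3 exon on the same strand, where fragments cannot be assigned to either gene alone. Summed over these 4 genes, the plus-strand share of counts was 88.8% in replicate 1 (95% Wilson interval 86.4 to 90.9), 93.0% in replicate 2 (91.4 to 94.3), 90.4% in replicate 3 (88.2 to 92.3) and 76.7% in replicate 4 (72.9 to 80.0). Replicate 4 was thus below the others, as for the Gata3 pair alone.

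Within 100 kb on either side, Gm13262 (plus strand) had 4, 15, 0 and 12 counts. Taf3, the gene of a general transcription factor subunit on the minus strand, had 31, 18, 33 and 30. Near Maf, 4930488N15Rik and Gm23677 had no count in any library, so Gm15655 and Maf were the only counted genes of that window.

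The GATA family had fewer counts on its own strands than Gata3. Of 8 GATA family genes and cofactors, Gata2, Gata4, Gata5, Gata6 and Zfpm2 had none in any library. Gata1, the red cell and mast cell relative, had 8 counts in replicate 3 and none elsewhere, and Trps1, a repressor with a GATA-type finger, had 5, 2, 0 and 1. Zfpm1, whose protein FOG1 binds GATA factors, had 5.92 ± 1.76 TPM and was below Gata3 on average. Gata3 exceeded 7 of these 8 genes in every library, Zfpm1 being the exception.

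In the MAF and BACH family, the large MAF genes Mafa and Nrl had no count. The small MAF gene Maff, whose protein lacks an activation domain, had 110, 142, 69 and 69 counts and 41.9 ± 7.74 TPM, more than Gata3 in every library. Bach2, a repressor that pairs with small MAF proteins and restrains effector T cells, had 2.88 ± 2.76 TPM, and Mafg 1.33 ± 1.65. Maff has no gene annotated opposite its exons, so its counts have no such partner. Counts of 0 on the own strand do not show that a relative's RNA was absent.

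Regulators that act beside GATA3 covered a wide range. Of 17 Th2 regulators 17 had a count, and the median of their mean TPM was 11.2, against 10.2 over the 7752 genes. Irf4, a factor induced by T cell receptor signals, had 157 ± 27.0 TPM, Junb, an AP-1 factor, 145 ± 53.1, and Batf, its partner with IRF4, 87.5 ± 38.0. Irf4, Batf, Junb and 1 more, the growth factor independence gene Gfi1 with 19.3 ± 9.04, exceeded Gata3 in every library, and 6 of the 17 were below it in every library. Junb has 173 bp of exon opposite Prdx2 and Gfi1 101 bp opposite A430072P03Rik, while Irf4 and Batf have no gene annotated opposite their exons. Stat6, which relays the interleukin 4 signal, had 13.4 ± 5.88. Of the 17, 16 averaged 10 or more counts and all 16 varied beyond counting error, against 88.2% of genes. The order of Gata3 over the replicates was shared by 3 of the 17, Stat5a, Stat5b and Ikzf1, and that of the noncoding genes by none, beside 14.7% and 4.61% of all tested genes.

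**Figure D5:**
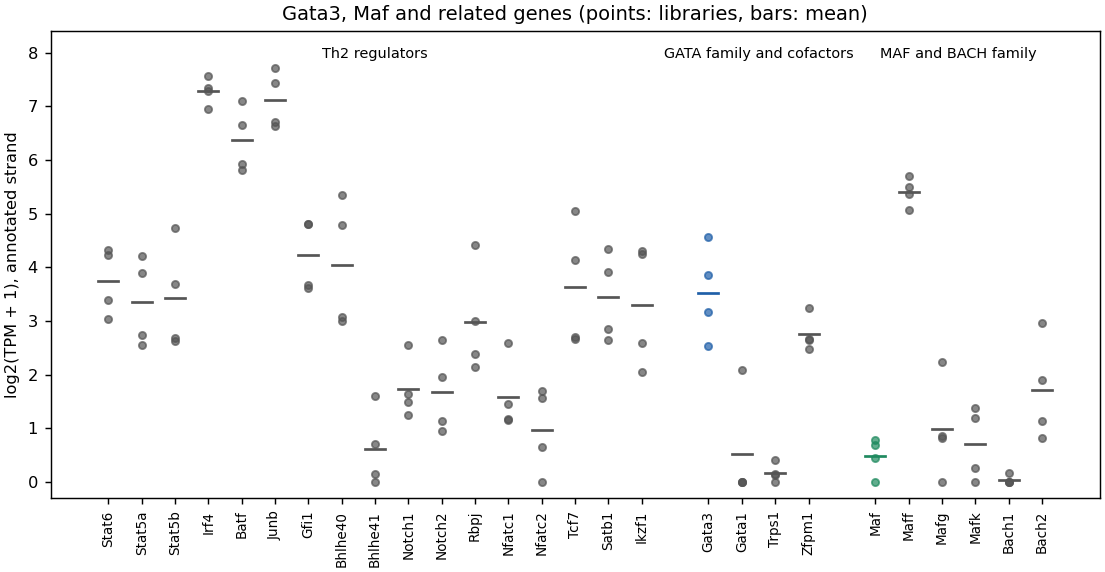
log2(TPM + 1) on the annotated strand (y axis) of Gata3, Maf and the genes of 3 lists that had a count (x axis), with a point for each of the 4 libraries and a bar at their mean. Irf4, Junb and Batf lie above Gata3, and Maff lies above Maf and Mafg.

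The regulators of other fates were lower than Gata3 apart from Foxp3. Foxp3, the regulatory T cell factor, had 121 ± 17.3 TPM, and 590 bp of its exons lie opposite Ccdc22. Runx3, a factor of cytotoxic and Th1 cells, had 5.05 ± 2.43 TPM, and 7 of the 8 genes of this list were below Gata3 in every library.

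Of the 8 genes on which GATA3 or MAF are known to act, Il21 had 428 ± 32.2 TPM, Il13 97.8 ± 83.6 and Il4 68.2 ± 3.31. Of the 8, 6 passed the count filter and 5 of these varied beyond counting error, a share near the 88.2% of all genes. Il10 missed it, with an adjusted p = 0.071 (chi-square test, Benjamini-Hochberg) and 33.8 ± 7.26 TPM. Maf had fewer TPM than Il4, Il10 and Il21 in every library.

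A noncoding gene opposite, as at Gata3 and Maf, was annotated for 14 of the 49 genes of these 5 lists. Of these pairs 12 had any count, and in 10 of the 12 the noncoding gene was denser. With at least 100 shared bp and 20 counts, as for all pairs, it was denser in 9 of 11, or 81.8%, near the 86.6% over all pairs and so not a result about these lists. Notch1, a receptor that can induce Gata3, had a mean of 2.49 counts per kb against 652 for 0610009E02Rik. Bach2 had 2.74 against 246 for Bach2os, and Il5, the eosinophil cytokine that GATA3 activates, had 5.04 against 2938 for Gm12214. Other pairs were nearly even: Satb1, a chromatin organiser of T cells, had 11.4 against 18.2 for Gm6934. Eomes, a factor of cytotoxic cells, had 1.62 against 1.87 for Gm33460. Gm33460 had 4 counts in replicate 3 and none elsewhere, and Eomes had 3, 5, 9 and 10 counts. That this pair counts as having a denser noncoding gene thus rests on replicate 3 alone. Foxp3 and Il21 were the exceptions, with 131 against 0 for Gm36995 and 464 against 370 for Gm12534.

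Markers of T cells had counts on their own strand for 7 of 7 genes, beside 16612 of all 50600 genes. In replicate 3 Cd3d had only 1 count and Cd3g 8. The summed level of the 7 genes was 347 to 735 CPM. Of this, 286 CPM on average was Cd247, a receptor chain gene with 3007 bp of exon opposite Pou2f1, and without it the sum was 78.1 CPM in replicate 3 and 470.0 CPM in replicate 4. Cd3e had a mean of 5.51 counts per kb against 3742 for the noncoding Gm48719, which shares 135 bp of exon with it on the other strand. The 12 markers of other cell types summed to 426 to 469 CPM, of which Csf1r, opposite Hmgxb3, made up nearly all with 432 CPM on average, and without it they summed to 6.22 to 24.2 CPM. Ms4a1, Lyz2, Itgam, Mcpt4, Cpa3, Cd8a and Ncr1 were at 0 in every library, and Cd79a, Epx and Epcam had 87, 4 and 13 counts in all. Cd79a had 12.4 ± 9.99 TPM, beside 12.2 for Gata3. The T cell sum was highest in replicate 4 and lowest in replicate 3 with or without Cd247, and its part in the order of Gata3 was not tested.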

How the data were processed

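The values are the authors' deposited raw fragment counts per gene for 4 Th2 libraries. Per the file headers the counting used featureCounts v1.4.6-p4 on STAR alignments (STAR version not given in the sources used here), with both ends mapped, exons of GENCODE M13 and strand option 1. The labels give assembly mm10, call the assay total RNA-seq and link a poly(A) library protocol. Symbols came from GENCODE M21 by identifier (50376 of 50600 matched), whose exons for the 4 genes equal those in the files. CPM and TPM were computed from the counts.

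Ratios were tested by flipping the signs of the library values (exact permutation, two-sided). Variation used a chi-square test over genes averaging 10 or more counts, TMM sizes and Benjamini-Hochberg adjustment at 0.05. It was checked on Poisson counts drawn with known changes and no other variation between libraries. The check does not cover libraries that vary as these do, with a common biological coefficient of variation of 0.575. edgeR 4.0.16, DESeq2 1.42.0 (size factors only), R 4.3.3 and Python 3.11.15 were used. Intervals are at 95%. Long noncoding genes are those of the GENCODE M21 list.

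The genes and lists were chosen with earlier results of these data known. Named were the 4 genes, counted genes within 100 kb, the 3 nearest in pattern to each, and of each list the 3 highest, those at 0 and those with a noncoding gene opposite, mostly as counts. A few of these are not reported here. Other list genes were named after their values were seen.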

Additional observations from a re-analysis of the deposited data

Results flagged for a closer look

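The log2 ratio of counts per kb of Gata3 over Maf stood apart in replicate 4. It was 8.25 there against 4.13, 3.55 and 3.61 in replicates 1 to 3, a gap of 0.877 of the whole range, above Dixon's 95% critical value for 4 samples. Maf had 0 counts in replicate 4, so the value is set by the 0.5 counts added. With Maf at 3 counts the log2 ratio was at least 5.66, and the gap, 0.732 of the range, no longer passed that value. Of 15 quantities examined in this way 1 passed, and chance passes about 1 in 20.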

How the results depend on the processing

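The means of the 5 ratios between the 4 genes kept their direction under another pseudocount (1 count), on the log2(TPM + 1) scale, without length scaling and without each replicate. The difference between loci changed sign to 0.14 when length scaling and replicate 4 were both left out, a setting chosen after seeing the data. The mean log2 ratio without 1 replicate ranged from 6.31 to 7.32 for Gm13256 over Gata3, 8.47 to 9.34 for Gm15655 over Maf, 3.77 to 5.33 for Gata3 over Maf, 2.61 to 2.81 for Gm13256 over Gm15655 and -2.61 to -1.15 for the difference between loci. On the log2(TPM + 1) scale Gata3 over Maf was 3.05, and counts without length scaling gave 3.89 for Gm13256 over Gata3 and 4.75 for Gm15655 over Maf. The share of pairs with a denser noncoding gene was 86.6%, and it was 90.6% with at least 100 counts in the pair, 83.2% with at least 1 count and 79.8% without length scaling. The 6838 genes that varied beyond counting error became 11689 of 16612 when every gene with a count was tested, and there Maf had an adjusted p = 0.17 (chi-square test, Benjamini-Hochberg). Gata3, Gm13256 and Gm15655 passed that test there, with DESeq2 size factors, with total counts and without each replicate, with an adjusted p of at most 0.0065. No paired analysis was possible because all libraries belong to 1 group. Depth limits Maf most, with 16 counts in 4 libraries.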
